A study of Rattus norvegicus with 12 samples.

Results

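Translation initiation factors (eIFs) are the proteins that bring the initiator tRNA, the mRNA and the ribosomal subunits together before a protein chain is begun. Their mRNAs were followed here in pancreatic islets of rat offspring. The genes were taken by name: every entry of the expression table whose symbol starts with Eif and a digit from 1 to 6, leaving out the eIF2 kinases (Eif2ak genes). This gave 48 entries for 47 genes, out of 17406 genes in all. Eif5 had 2 overlapping entries and was counted once. All 47 genes passed the filter on low values, and the lowest read number of any of them in any library was 29, for Eif4ebp3.

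The islets came from Sprague-Dawley rats aged 15 weeks. Dams, 6 per diet, ate a low-fat diet (LF, 10% fat) and are called Lean, or a high-fat, high-sucrose diet (HFS, 45% fat) used to induce gestational diabetes mellitus (GDM). They began the diet 6 weeks before mating with LF-fed males and stayed on it through pregnancy and suckling, and the offspring were weaned onto LF or HFS for 12 weeks. The 4 groups of 3 libraries are written with the dam first and the weaning diet second: Lean-LF and Lean-HFS for offspring of Lean dams, GDM-LF and GDM-HFS for those of GDM dams. GDM therefore stands for the HFS diet of the dam together with the gestational diabetes it was used to induce, and these cannot be told apart. The labels used here name neither the litter nor the sex of an animal. Some of the 12 libraries may therefore be of littermates, and p-values measure only the spread between these samples.

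Between 11469290 and 27492858 reads over genes were recovered per library. The islet hormone and granule genes took 24.8% to 38.7% of the reads outside ribosomal RNA (rRNA), and 11 of 11 of these markers were present. Markers of acinar cells, the enzyme-producing cells of the exocrine pancreas, took 12.5% in GDM-LF 2 and 0.630% to 4.92% in the other libraries. Of 5 measures of the libraries compared between dams, the rRNA share of the reads ran from 1.84% to 39.0% and was lower by 17.7 percentage points under GDM (exact permutation test within diets, two-sided p = 0.035, adjusted p = 0.0875). The median deviation of transcripts under 1000 bases, less that of transcripts over 4000 bases, was 0.70 higher on the log2 scale under GDM (exact p = 0.005, the smallest the design allows, adjusted p = 0.025). The mean log2 level of the acinar markers was 1.04 higher under GDM (exact p = 0.2). Duct markers took 0.00238% to 0.00702% of the reads outside rRNA in Lean and 0.00444% to 0.0125% in GDM libraries, and endothelial markers 0.0103% to 0.0237% and 0.00519% to 0.0183%. Macrophage markers took 0.00163% to 0.00557% in Lean and 0.000134% to 0.00612% in GDM libraries. Stellate and fibroblast markers took 0.00537% to 0.0275% and 0.00724% to 0.159%, the highest in a GDM-LF library. All these ranges overlapped, and the part of these cells in the results was not tested. The title of GDM-LF 1, GDM-LF 2 and GDM-HFS 3 carries the letter K and that of the other libraries G, with no meaning given.

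In the usual route of initiation, the eIF2 complex carries the initiator tRNA to the small ribosomal subunit, where eIF1, eIF1A, eIF3 and eIF5 gather with it. The cap-binding protein eIF4E, the scaffold eIF4G and the helicase eIF4A bring in the mRNA. At the start codon eIF2 leaves, eIF5B joins the large subunit, and eIF2B recharges eIF2 for another round. Stress kinases that phosphorylate eIF2 block this recharging, and 4E-binding proteins (4E-BPs) hold eIF4E back unless mTORC1 phosphorylates them. Beta cells make very large amounts of proinsulin, and their survival is known to depend on control at eIF2. The values below are of mRNA, so they say nothing of phosphorylation or of protein.

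The mRNA levels of the initiation factors spanned a wide range. On the scale of scaled values per kilobase of exon, 44 of the 47 lay above 35.2, the median of all genes tested. Eif4a1 was highest with a mean of 2107 over the 12 libraries. Eif5a followed with 1824 and Eif4a2 with 1606, and the ranges over libraries of these genes overlapped. Eif1 (851), Eif4g2 (758), Eif2s2 (744), Eif2s1 (686), Eif3g (680) and Eif1a (669) came next, again with overlapping ranges. The lowest levels per kilobase were those of Eif4e3 (14.4), Eif5a2 (24.8), Eif4enif1 (28.7), Eif4g3 (35.8), Eif5b (39.97), Eif4ebp3 (41.4) and Eif4ebp2 (47.8).

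The spread of levels within a complex differed from one complex to the next. The 13 eIF3 genes lay between 110 (Eif3h) and 680 (Eif3g) per kilobase, although their proteins join in 1 complex. By contrast, the 5 eIF2B genes lay close together, between 79.1 (Eif2b1) and 112 (Eif2b4). Among the 4E-BPs, Eif4ebp1 at 296 per kilobase was several times above the other two, and near Eif4e at 262. Eif2b5, the catalytic subunit of eIF2B, varied least of all members over the 12 libraries, with scaled values from 279 to 349 and a coefficient of variation of 6.78%. Eif4ebp2 varied most, with a coefficient of 41.8%. In all, the 48 entries took 0.591% to 0.792% of the reads outside rRNA, and this share did not differ detectably between dams (exact p = 0.755). The share includes both Eif5 entries, so reads where they overlap may be counted in each.

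GDM of the dam was the only factor with which members moved past the threshold. Averaged over the weaning diets, 6 of the 47 rose: Eif6, Eif2s1, Eif3i, Eif3k, Eif3g and Eif3m. Eif4ebp2 fell (limma, Benjamini-Hochberg adjusted p under 0.05). The 6 that rose are 12.8% of the members, beside 6.13% of the 12339 genes tested, and the 1 that fell is 2.13%, beside 5.43% (11.6% of all genes in either direction). In all, 36 members (76.6%) were higher, beside 52.7% of all genes, and 11 were lower, with a median log2 difference of 0.18, beside 0.03 for all genes tested. Of the 40 that did not pass, 30 were higher and 10 lower. At an unadjusted p under 0.05 in limma stood 24 members (51.1%), 20 higher and 4 lower, beside 30.9% of all genes. In edgeR it was 18 of the 47, beside 31.2% of all genes, and in DESeq2 24, beside 31.9%. The 6 libraries of each side did not overlap for 7 members, higher under GDM for 6 (2.8% of all genes) and lower for 1 (2.32% of all genes). In bulk islets, a change in the share of a cell type and a change in mRNA per cell cannot be told apart.

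The number of members that rose depended on the libraries and the model. It was 1, Eif3i, without Lean-LF 1 (1.24% of all genes higher), Lean-LF 2 (1.09%), Lean-HFS 1 (2.03%) or GDM-HFS 3 (1.85%). It was 3 without GDM-LF 2 (3.78%) or GDM-HFS 2 (3.87%), and 12 (9.81%), with 3 that fell (10.2%), without Lean-LF 3. That library differed from the others of its group. Its rRNA share was 1.84%, against 11.3% in Lean-LF 1 and 30.4% in Lean-LF 2. Its median deviation of short less long transcripts was -0.08, against -0.72 and -0.73. The part of these in the higher count was not tested. No gene of the table passed without the 3 libraries with the letter K (0% in both directions) or with the rRNA level as a covariate (0%). Leaving out the K libraries leaves GDM-LF 3 alone in its group. With the acinar level as a covariate Eif3i and Eif6 rose and Eif4ebp2 fell, beside 2.71% of all genes higher and 1.42% lower. On recovered reads edgeR called 4 that rose (5.44% of all genes) and 1 that fell (6.61%). DESeq2 called 11 and 1, beside 9.64% and 8.92% of the 12051 genes to which it gave an adjusted p. Eif3i and Eif4ebp2 passed whichever single library was left out.

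**Figure D1:**
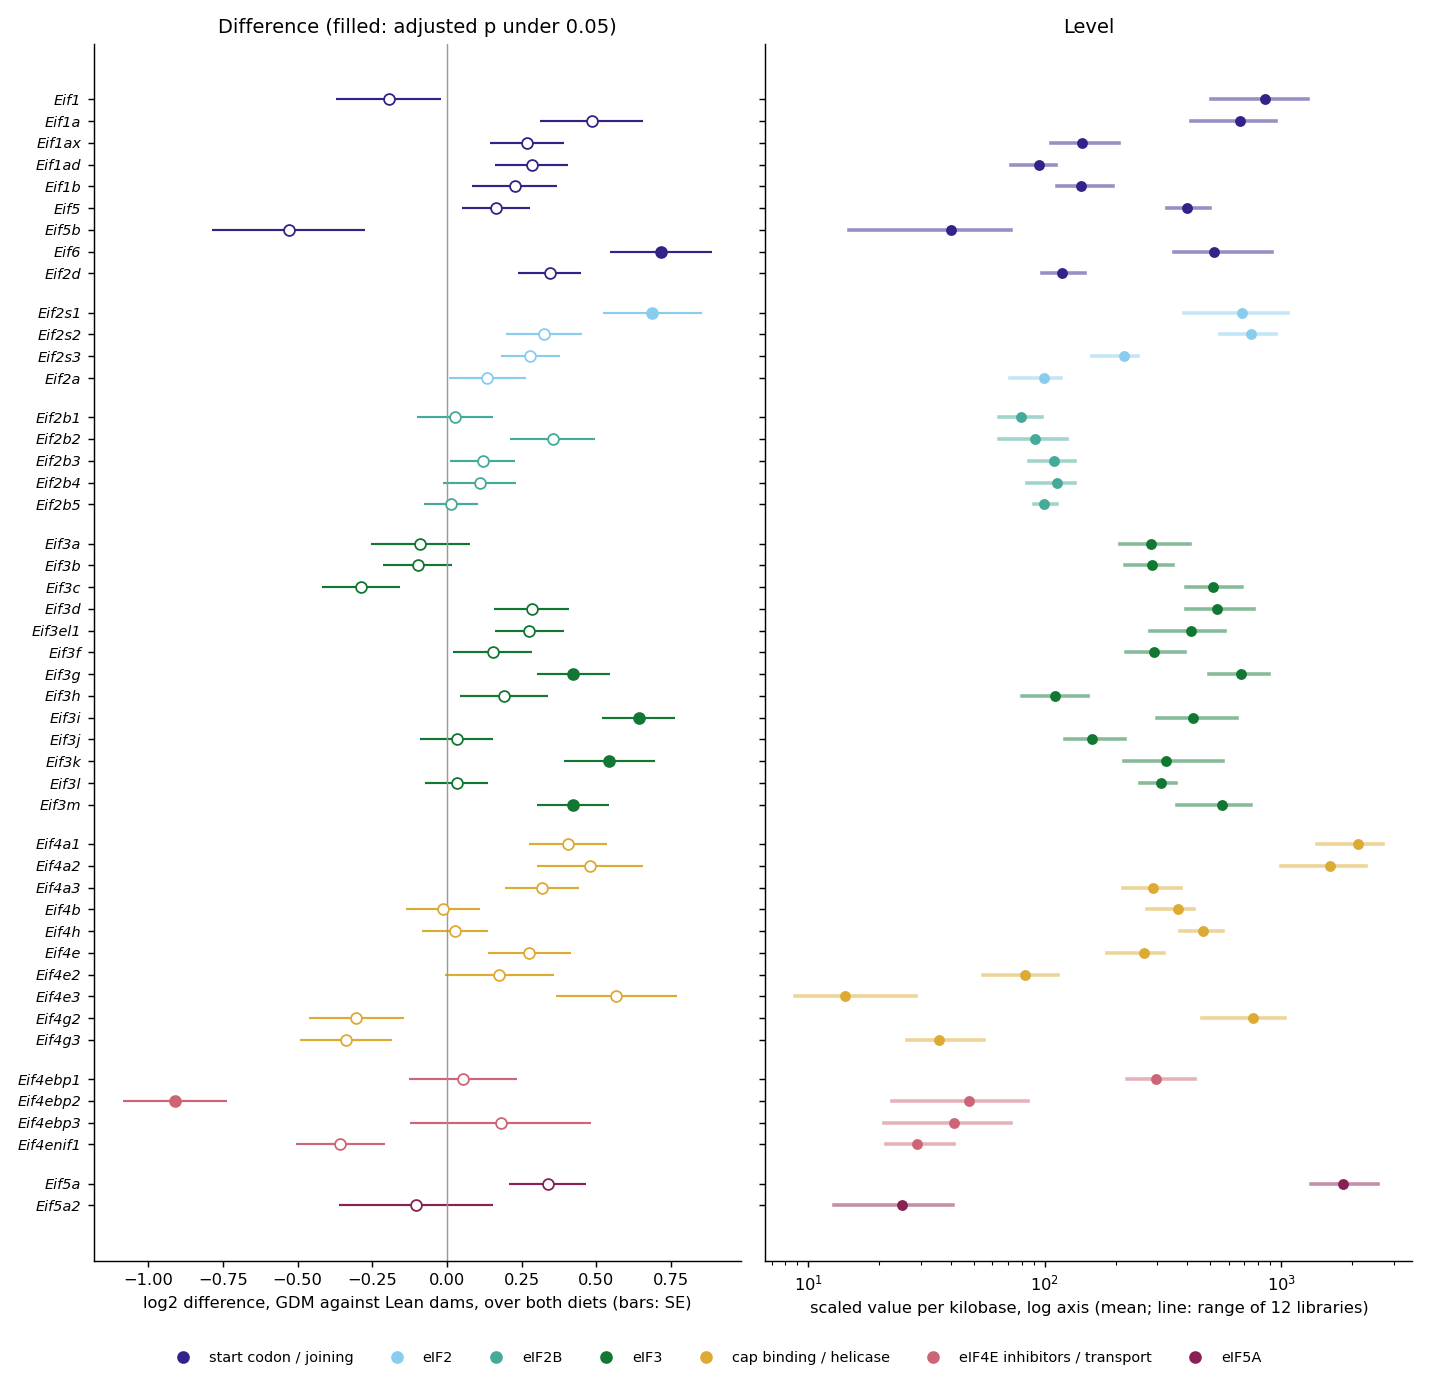
The 47 initiation factors by role. Left, log2 difference of GDM against Lean dams over both weaning diets with its standard error, filled where the adjusted p is under 0.05; right, mean scaled value per kilobase on a log axis with the range of the 12 libraries. The largest rises are Eif6 (0.72), Eif2s1 (0.69) and Eif3i (0.64), and Eif4ebp2 (-0.91) stands apart on the left.

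The 7 members that passed are spread over 6 chromosomes of the deposited rat build rn5. Each was read against its promoter in the newer build GRCr8, from RefSeq, since promoters of genes that every cell uses often hold the motif of ETS transcription factors. The 30 bases around each start are shown 5′ to 3′ on the strand of the gene, 13 before the start and 17 from it, with any TTCCGG in capitals.
Eif6: agcgtgtagagattggagtcgtttggtgag
Eif2s1: gcgtgggaccctagttcgggattcacacat
Eif3i: gtcttcTTCCGGtcctactcacattgcctc
Eif3k: tttttcTTCCGGtccttgagtacttagtac
Eif3g: gctgcgtggagtaggacttcgagatgccga
Eif3m: taacaccgtgtggtaccgctccttTTCCGG
Eif4ebp2: TTCCGGtagtcatcgttgccgctgctgccg
In Eif3i and Eif3k the motif began 7 bases before the start. The letters TTCCGG, the core of the ETS family motif, were searched on both strands (CCGGAA on the other) in windows of 250 bases before to 50 after each start. They occurred in 22 of the 42 members with a promoter in the RefSeq table (52.4%), beside 26.5% of the 9425 promoters of tested genes and 15.8% of all 27457. Among the 7 members that passed, 6 held it and Eif2s1 did not, so both Eif4ebp2 and members that rose are among its holders. CACGTG, the E-box core, occurred in 8 of the 42 (19.0%, beside 8.91% of tested genes' promoters and 6.65% of all), and in none of the 7. A match is a description of the letters in the window.

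Among the 9 genes of start codon selection and subunit joining, 1 rose, 7 were higher and the median log2 difference was 0.27. Eif6 (chromosome 3, 157722078 to 157728326), which keeps the large ribosomal subunit from joining too early, rose. Its scaled values were 459, 429 and 508 in Lean-LF and 431, 484 and 513 in Lean-HFS. They were 578, 1115 and 536 in GDM-LF and 692, 862 and 1021 in GDM-HFS. Every GDM library was above every Lean library, GDM-LF 2 was the highest of all, and that library also had the most acinar reads. The log2 difference was 0.72 ± 0.171 (SE), or 1.64-fold (limma adjusted p = 0.0228), and 0.55 to 0.81 when single libraries were left out.

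The remaining genes of this role did not pass. Eif2d, which can place the initiator tRNA without eIF2, came closest: its Lean libraries lay between 194 and 224 and its GDM libraries between 228 and 294, without overlap (log2 difference 0.34, adjusted p = 0.0510). Eif1a differed by 0.48 (adjusted p = 0.0796), Eif1ad by 0.28 (0.133), Eif1ax by 0.27 (0.159), Eif1b by 0.23 (0.294) and Eif5, which triggers GTP hydrolysis on eIF2, by 0.17 (0.342). Eif1a and Eif1ax are near copies of each other, as are Eif1 and Eif1b, and reads may have been split between them. Eif5b, the joining GTPase, was lower by a log2 difference of -0.53 with a wide error (SE 0.255, adjusted p = 0.175). Eif1, which guards against wrong start codons, differed by -0.20 (adjusted p = 0.475), and its difference had opposite signs on the weaning diets, as given further on.

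The 4 genes filed under eIF2 were all higher under GDM, with a median log2 difference of 0.30, and 1 of them rose. Eif2s1 (chromosome 6, 111422397 to 111447066), the alpha subunit on which the stress kinases act, had 584, 530 and 908 in Lean-LF and 583, 978 and 775 in Lean-HFS. It had 1020, 1467 and 1056 in GDM-LF and 1034, 1084 and 1227 in GDM-HFS. The lowest GDM library stood above the highest Lean library, with GDM-LF 2 again highest. The log2 difference was 0.69 ± 0.167 (SE), or 1.61-fold (limma adjusted p = 0.0236). Eif2s3, the gamma subunit that holds the tRNA, had 581 to 805 in Lean and 842 to 906 in GDM libraries, also without overlap (log2 difference 0.28, adjusted p = 0.0781). Eif2s2, the beta subunit, differed by 0.32 (adjusted p = 0.107), and Eif2a, a separate tRNA-binding factor and no subunit of eIF2, by 0.13 (0.499).

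None of the 5 eIF2B genes passed, although all 5 were higher, with a median log2 difference of 0.11. Eif2b2 had the largest, 0.35 ± 0.142 (SE, adjusted p = 0.113), and Eif2b5 the smallest, 0.01 ± 0.0895 (adjusted p = 0.938). The ratio of Eif2b5 to Eif2s1 within a library, which does not depend on the scaling, was lower under GDM by -0.67 on the log2 scale. Of 8 pairs tested this had an exact permutation p of 0.015 and an adjusted p of 0.06, so it did not pass. Over the fits without 1 library the difference ran from -0.79 to -0.55 and the adjusted p from 0.02, without Lean-HFS 2, to 0.18. Without the K libraries GDM-LF 3 is alone in its group, and the permutation test has too few arrangements to decide. Eif2b5 has the longer mRNA, and with the length trend removed the difference was -0.39 (adjusted p = 0.1).

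Of the 13 eIF3 genes, 4 rose, 10 were higher and the median log2 difference was 0.19. eIF3 is the large scaffold on the small subunit. Eif3i (chromosome 5, 151525848 to 151532876), a peripheral subunit, had 255, 243 and 302 in Lean-LF and 294, 255 and 264 in Lean-HFS. It had 377, 486 and 346 in GDM-LF and 405, 392 and 530 in GDM-HFS. No GDM library came as low as the highest Lean library, and the log2 difference was 0.64 ± 0.123 (SE), or 1.56-fold (limma adjusted p = 0.0122). Without single libraries it was 0.57 to 0.69, with an adjusted p of at most 0.0487.

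The other 3 eIF3 genes that rose overlapped between dams. Eif3k (chromosome 1, 89103168 to 89108321) had 102 to 143 in the Lean libraries, 137, 199 and 123 in GDM-LF and 192, 189 and 268 in GDM-HFS (log2 difference 0.54, adjusted p = 0.0377). Only its GDM-HFS libraries were all above the Lean range. Eif3m (chromosome 3, 101614558 to 101632161) had 451 to 735 in Lean libraries, 748, 925 and 696 in GDM-LF and 808, 792 and 808 in GDM-HFS (0.42, adjusted p = 0.0400). A single GDM library, GDM-LF 3, fell within the Lean range. Eif3g (chromosome 8, 21967947 to 21971979), an RNA-binding subunit, had 513 to 666 in Lean libraries, 582, 919 and 723 in GDM-LF and 807, 916 and 903 in GDM-HFS (0.42, adjusted p = 0.0424). Each of these 3 calls was lost in 8 or 9 of the 12 fits that left out a single library, and that of Eif3i in none.

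The 3 longest eIF3 mRNAs were not higher. Eif3a, the largest, differed by -0.09 ± 0.166 (adjusted p = 0.747), Eif3b by -0.10 (0.591) and Eif3c by -0.29 (0.154). Eif3d, which can bind caps, differed by 0.28 (0.147), Eif3el1, whose accession RefSeq lists as Eif3e, by 0.28 (0.124), Eif3h by 0.19 (0.402) and Eif3f by 0.15 (0.456). Eif3l and Eif3j both differed by 0.03. The differences of the 13 genes ran largely in the order of their exon lengths.

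**Figure D2:**
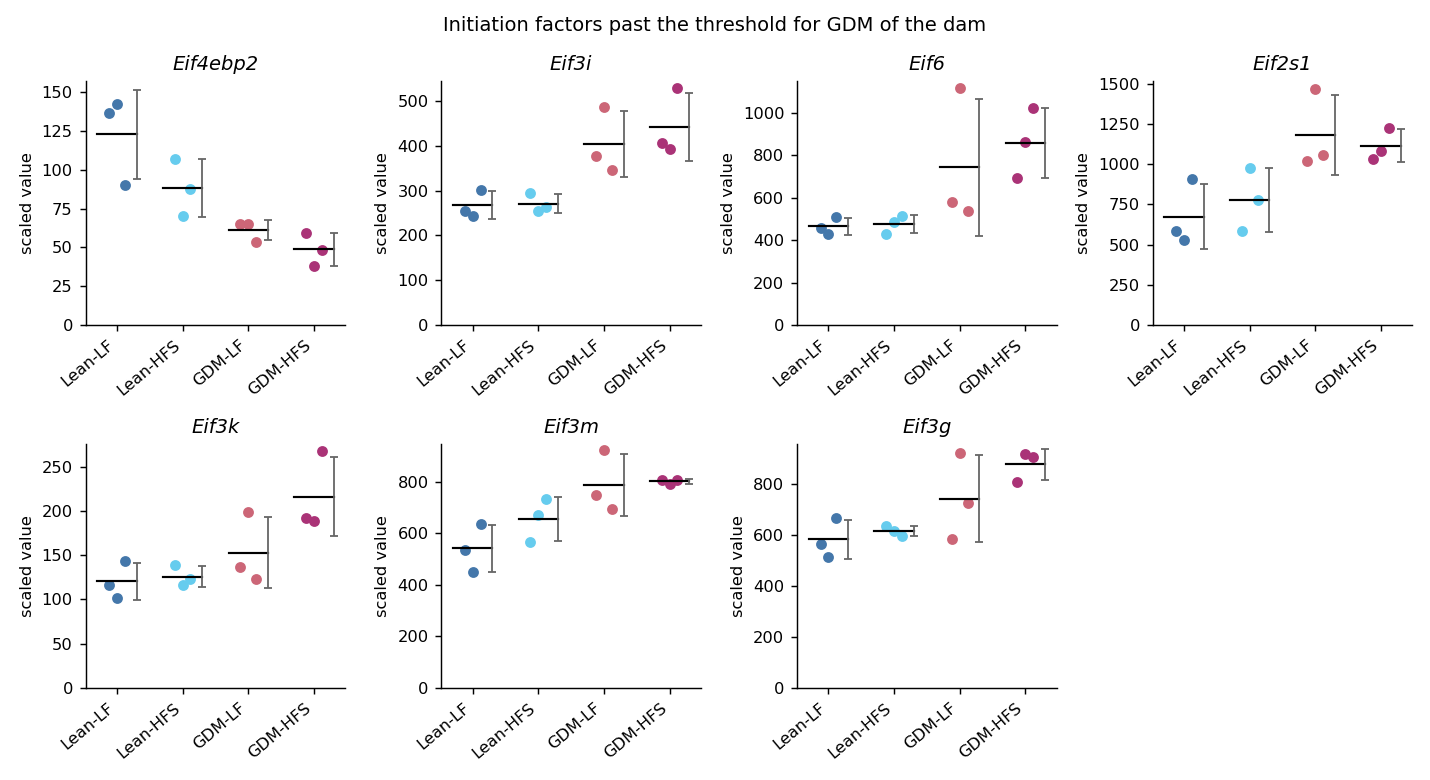
Scaled values of the 7 initiation factors that passed the threshold, by group; points are single libraries, the black line is the mean and the grey bar 1 SD (n = 3). Eif4ebp2 lies lower in both GDM groups, and Eif3i, Eif6 and Eif2s1 lie higher without overlap.

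Among the 13 eIF3 genes, Spearman's rho between exon length and the log2 difference was -0.85, given as a description. Eif3k at 474 bases and Eif3i at 812 stood at the short end, and Eif3c at 3014 and Eif3a at 5103 at the long end. The same slope ran through all tested genes (rho -0.40 over 12339) and over the 47 members (rho -0.48). Genes under 1000 bases had a median log2 difference of 0.44 and those over 2000 bases -0.10. The members departed from it in part: the 6 under 1000 bases had a median of 0.20, the 24 from 1000 to 2000 bases 0.30, beside 0.14 for all genes of that length, and the 17 over 2000 bases -0.01.

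With each library's own length trend removed, 1 member rose and 1 fell, beside 1.83% of all genes higher and 2.59% lower. Eif4ebp2 still fell (log2 difference -0.99, adjusted p = 0.0300), and the member that rose was Eif2s3 (adjusted p = 0.0384). Eif2s1 (0.52, adjusted p = 0.0505) and Eif6 (0.50, 0.0661) stood near the threshold. Eif3i dropped to 0.24 (0.140), Eif3m to 0.22 (0.182) and Eif3g to 0.14 (0.384), and Eif3k changed sign, to -0.12 (0.544). The median of the members was then 0.12, beside 0.02 for all genes, and 29 were higher. In all, 15 members changed sign, Eif3k alone of those that had passed. What makes short transcripts higher in the GDM libraries was not tested.

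**Figure D3:**
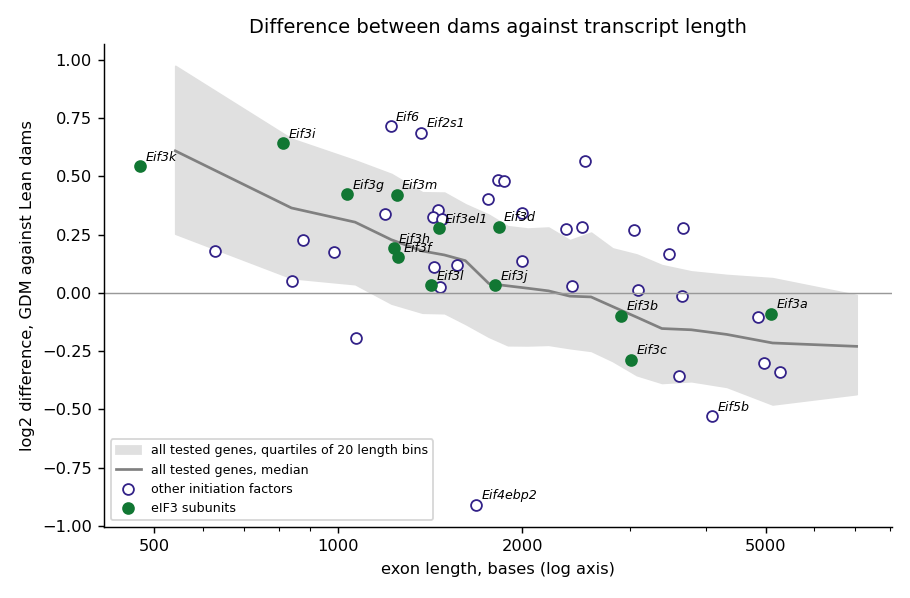
Log2 difference of GDM against Lean dams, over both weaning diets, against exon length on a log axis. The grey line and band are the median and quartiles of all tested genes in 20 length bins, and points are the initiation factors, filled for eIF3. Eif3k, Eif3i, Eif3g, Eif3c and Eif3a lie along the slope of all genes, and Eif6, Eif2s1 and Eif4ebp2 lie outside the band.

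None of the 10 cap-binding and helicase genes passed, with 7 higher and a median log2 difference of 0.23. Eif4a1 and Eif4a2 encode the near-identical helicases that unwind the 5′ end of an mRNA. Eif4a1 had 2492 to 3503 in Lean and 3688 to 4740 in GDM libraries, with no overlap (log2 difference 0.40, adjusted p = 0.0613). Eif4a2 overlapped, with 1858 to 3320 against 2994 to 4283 (0.48, adjusted p = 0.0896), and the ratio of the pair did not differ detectably (log2 0.08, exact p = 0.64). Eif4e3, a weakly expressed cap-binding relative, differed by 0.57 (adjusted p = 0.0796), and Eif4e by 0.28 (0.197). Eif4a3, a helicase of the exon junction complex, differed by 0.32 (0.103) and Eif4e2 by 0.17 (0.541).

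The helicase cofactors Eif4b and Eif4h stood at -0.01 and 0.03, and the scaffolds were on the low side. Eif4g2, which supports initiation without the cap, differed by -0.30 (adjusted p = 0.213) and Eif4g3 by -0.34 (0.154). No entry for Eif4g1 matched the rule, so the main scaffold was not analysed here.

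The eIF4E inhibitors held the largest difference among all members. Eif4ebp2 (chromosome 20, 32841629 to 32858133), a 4E-BP that blocks the docking of eIF4G on eIF4E, fell. Its scaled values were 136, 142 and 90.1 in Lean-LF and 107, 70.1 and 87.9 in Lean-HFS. They were 65.1, 65.1 and 53.6 in GDM-LF and 59.5, 37.8 and 48.5 in GDM-HFS. All 6 GDM libraries lay below all 6 Lean libraries, the nearest being Lean-HFS 2 and GDM-LF 1 and 2. The log2 difference was -0.91 ± 0.172 (SE), a fold of 1.88 (limma adjusted p = 0.0122), and -1.01 to -0.83 without single libraries, with an adjusted p of at most 0.0489. Without the K libraries it was -1.01 (adjusted p = 0.195), and with the rRNA covariate -0.56 (0.621).

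The other 4E-BPs did not show this. Eif4ebp1, a target of the stress factor ATF4 in islets, had 187 to 354 in Lean and 192 to 364 in GDM libraries (log2 difference 0.05 ± 0.180, adjusted p = 0.869). Eif4ebp3, the least abundant, differed by 0.18 ± 0.303 (0.720). Eif4enif1, which shuttles eIF4E into the nucleus, was lower by -0.36 without passing (0.123). The difference between Eif4ebp2 and the other 4E-BPs was not itself tested.

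The ratio of Eif4ebp2 to Eif4e within each library was lower under GDM by -1.19 on the log2 scale, a fold of 2.28. It ran from -3.30 to -1.60 in Lean and from -4.26 to -2.93 in GDM libraries, with overlap. The exact permutation p was 0.005, the smallest the 400 arrangements allow, and 0.04 adjusted over the 8 pairs. The adjusted p stayed under the threshold without Lean-LF 1, Lean-LF 3 or Lean-HFS 2 and rose above it, to at most 0.12, without any of the other 9 libraries, while the difference stayed between -1.36 and -1.05. The ratio of Eif4ebp1 to Eif4e differed by -0.22 (exact p = 0.345), and that of Eif3a to Eif3k by -0.63 (exact p = 0.06, adjusted p = 0.16), which became 0.25 with the length trend removed. The pairs Eif1b to Eif1, Eif5 to Eif1 and Eif5a2 to Eif5a all had an exact p of 0.2 or more.

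The eIF5A pair, named as initiation factors but known mainly for helping elongation, did not pass. Eif5a had 1597 to 2165 in Lean and 2074 to 3050 in GDM libraries (log2 difference 0.34, adjusted p = 0.0964). Eif5a2, far lower, differed by -0.10 ± 0.257 (0.813).

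On the LF weaning diet alone no member passed in limma, beside 0.851% of all genes higher and 0.729% lower (1.58% in either direction). Eif4ebp2 had the lowest adjusted p, 0.0540, with a log2 difference of -0.97. At an unadjusted p under 0.05 in limma stood 19 members (40.4%), beside 26.6% of all genes. In edgeR it was 14 of the 47, beside 28.2% of all genes, and in DESeq2 20, beside 29.2%. After adjustment edgeR called 0. DESeq2 called 7 higher and 1 lower, beside 7.83% and 6.43% of the 11813 genes to which it gave an adjusted p. The 3 GDM-LF libraries were all above the 3 Lean-LF libraries for 17 members (36.2%), beside 12.9% of all genes, and all below for 3 (6.38%), beside 12.4%. The median member differed by 0.32, beside 0.05 for all genes. After Eif4ebp2, the largest differences were those of Eif2s1 (0.83), Eif4ebp3 (0.73), Eif6 (0.59), Eif3i (0.59), Eif1 (0.58) and Eif3el1 (0.57). Without Lean-LF 3 the count was 8 that rose (6.78% of all genes) and 3 that fell (7.2%), and without GDM-LF 3 it was 6 that rose (7.28%).

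On the HFS weaning diet no member passed in limma either, and only 1 gene of the table did (0.0081% of all genes higher, 0% lower). At an unadjusted p under 0.05 in limma stood 14 members (29.8%), beside 14.2% of all genes. In edgeR it was 10 of the 47, beside 13.9% of all genes, and in DESeq2 14, beside 14.4%. After adjustment edgeR called 0. DESeq2 called 3 higher (Eif3i, Eif3k and Eif6) and 2 lower (Eif1 and Eif4ebp2). These stood beside 2.78% higher and 0.794% lower of the 7054 genes to which DESeq2 gave an adjusted p. The libraries did not overlap for 12 members that were higher (25.5%), beside 12.7% of all genes, and for 6 that were lower (12.8%), beside 12.1%. The median member differed by 0.14, beside -0.01 for all genes. The largest differences were Eif6 (0.84), Eif3k (0.76) and Eif3i (0.70) above, and Eif5b (-0.99), Eif1 (-0.97), Eif4ebp2 (-0.85), Eif4g2 (-0.59) and Eif3j (-0.44) below.

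The comparisons of dams on LF and on HFS share no library and are set side by side, but they are not independent repeats. Littermates may stand on both diets. The median deviation of short less long transcripts also separated the dams on each diet. It was -0.73 to -0.08 in Lean-LF and -0.07 to 0.56 in GDM-LF. On HFS it was -0.31 to -0.10 in Lean and 0.29 to 0.74 in GDM libraries. Its part in the counts below was not tested. Of the 47 members, 26 (55.3%) were higher under GDM on both diets, beside 35.4% of all genes, and 7 (14.9%) were lower on both, beside 32.8%. A further 8 were higher on LF and lower on HFS (17%, beside 18%), and 6 the reverse (12.8%, beside 13.8%). For 8 members the libraries did not overlap and were higher on both diets: Eif2d, Eif2s1, Eif2s3, Eif3i, Eif3m, Eif4a1, Eif4e3 and Eif6. They are 17% of the members, beside 3.94% of all genes. Eif4ebp2 was lower without overlap on both (2.13%, beside 3.36%). Eif3j was the only member with libraries fully separated in opposite directions (2.13%, beside 0.389%).

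**Figure D4:**
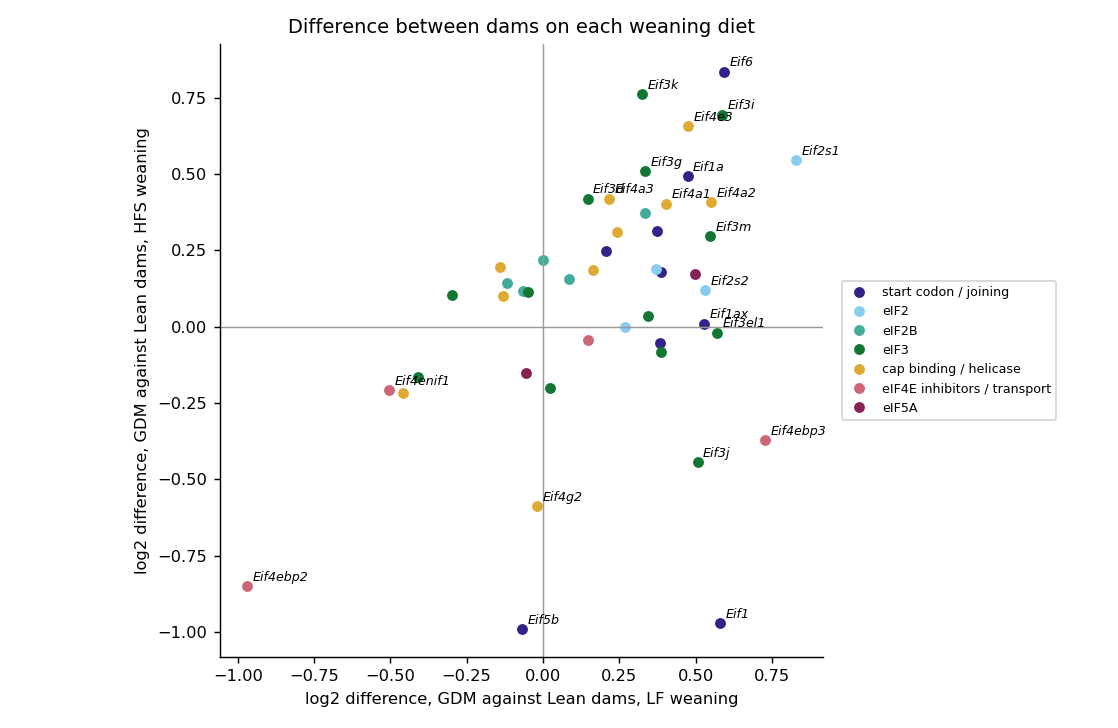
Log2 difference of GDM against Lean dams on the LF weaning diet (horizontal) and on the HFS weaning diet (vertical) for the 47 initiation factors, coloured by role. Eif6, Eif3i and Eif2s1 lie at the upper right, Eif4ebp2 at the lower left, and Eif1 and Eif3j lie to the right and below 0.

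Among members with opposite signs on the weaning diets, Eif1, Eif4ebp3 and Eif3j had the largest differences between diets. Eif4ebp3 had log2 differences of 0.73 and -0.37 with wide errors (interaction -1.10 ± 0.605, SE). Eif3j, a loosely held eIF3 subunit that sits near the decoding site, had 235, 278 and 220 in Lean-LF and 250, 311 and 393 in Lean-HFS. It had 374, 318 and 349 in GDM-LF and 232, 227 and 230 in GDM-HFS. The GDM-HFS libraries were almost equal and lay below all Lean-HFS libraries, while the GDM-LF libraries lay above all Lean-LF libraries. The interaction of dam and weaning diet was -0.95 ± 0.243 (SE) and did not pass (limma adjusted p = 0.784).

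Eif1 had 624, 1144 and 569 in Lean-LF and 850, 1253 and 1384 in Lean-HFS. It had 1170, 1017 and 1143 in GDM-LF and 664, 541 and 542 in GDM-HFS. The GDM-HFS libraries were again below all Lean-HFS and all GDM-LF libraries, and Lean-LF overlapped with GDM-LF. The interaction was -1.55 ± 0.353 (SE), likewise not past the threshold (limma adjusted p = 0.784), and 0% of all genes passed for the interaction in limma. At an unadjusted p under 0.05 stood 3 members, Eif1, Eif3j and Eif3el1 (-0.59). As many did in edgeR (beside 6.66% of all genes) and in DESeq2 (beside 7.65%), neither of which called any after adjustment. The 3 are 6.38% of the members, beside 5.92% of all genes in limma, a share near the background.

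**Figure D5:**
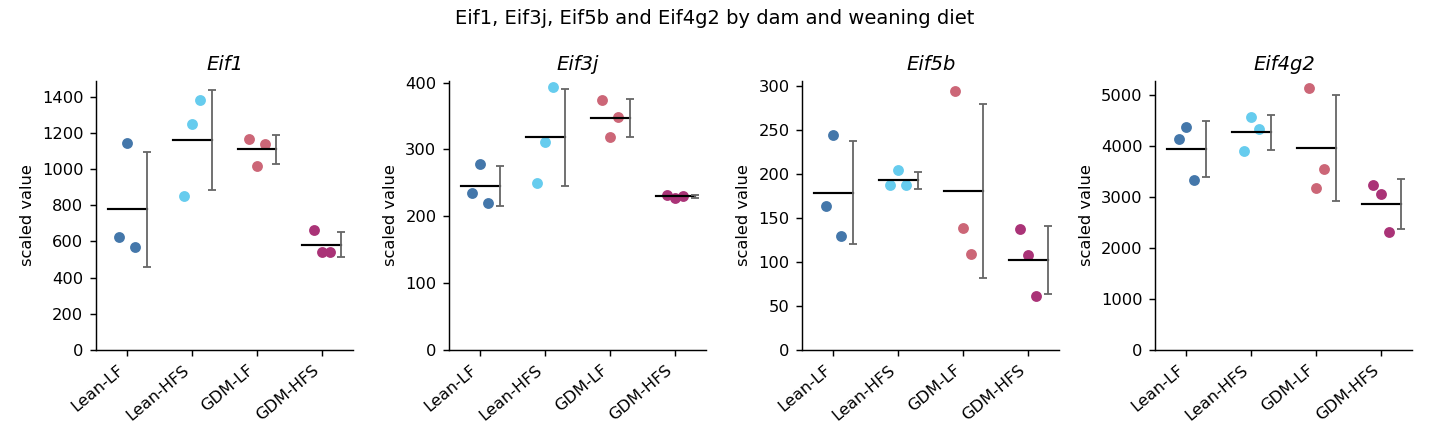
Scaled values of Eif1, Eif3j, Eif5b and Eif4g2 by group; points are single libraries, the black line is the mean and the grey bar 1 SD (n = 3). The GDM-HFS libraries of Eif1 lie between 541 and 664 and those of Eif3j between 227 and 232, each below every GDM-LF library.

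The weaning diet itself gave no member past the threshold in limma, edgeR or DESeq2, and no gene of the table in limma (0%) or edgeR. DESeq2 called 2 genes averaged over dams, 1 in offspring of Lean dams and 33 in those of GDM dams, where limma called 40 without GDM-LF 3, none of them a member. Averaged over dams, the lowest adjusted p among members was 0.883, for Eif4ebp2, which was lower on HFS by -0.40 ± 0.172 (SE). It was the single member at an unadjusted p under 0.05 in limma (2.13%, beside 4.95% of all genes), with 1 in edgeR (beside 5%) and 1 in DESeq2 (beside 5.74%). Within offspring of Lean dams, 1 member reached that level in limma, Eif1 (0.62), beside 2.18% of all genes. In edgeR it was 1, beside 2.25%, and in DESeq2 2, beside 2.5%. Within offspring of GDM dams it was 3: Eif1 (-0.93), Eif3j (-0.59) and Eif3k (0.51), with a lowest limma adjusted p of 0.470. The 3 are 6.38% of the members, beside 9.63% of all genes. In edgeR it was 4, beside 10.5% of all genes, and in DESeq2 5, beside 11.5%. There the libraries of HFS and LF did not overlap for 4 members that were higher, beside 7.42% of all genes, and 4 that were lower, beside 6.61%.

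A set of 4 lists of genes around the initiation factors were read in the same fit, averaged over weaning diets. Their counts stand beside 6.13% of all tested genes that rose and 5.43% that fell. With the rRNA level as a covariate no gene of the table passed (0%). Of 19 tested helpers of initiation, such as poly(A)-binding proteins and their partners, 1 rose: Denr, which recycles the small subunit, with a log2 difference of 0.50 (adjusted p = 0.0279). Their median was -0.03, beside 0.03 for all genes.
The 16 genes of the eIF2 kinases and the integrated stress response included 5 that fell and none that rose, with a median of -0.17. Of the 16, 7 were higher. On LF alone 1 fell, beside 0.729% of all genes, and on HFS alone 0 did, beside 0%. Sesn2 fell by 0.95 on the log2 scale, Chac1 by 0.93, Atf5 by 0.81 and Asns by 0.60, all of them known as ATF4 targets. Eif2ak1, the haem-regulated eIF2 kinase, fell by 0.43 (adjusted p = 0.0191). Atf4 itself differed by 0.05 (0.870). Other ATF4 targets did not pass, among them Eif4ebp1 (0.05), Trib3 (-0.34) and Ddit3 (0.18).

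Of 19 tested genes of mTORC1 and S6 kinase, the pathway that controls the 4E-BPs, 3 rose and 1 fell, beside 6.13% and 5.43% of all genes. Lamtor2 (0.51), Lamtor4 (0.57) and Lamtor5 (0.65), subunits of the Ragulator that anchors mTORC1 on lysosomes, rose. Lamtor1 and Lamtor3, also on the list, were not among those that rose, and 8 of the 19 tested genes were higher. Tsc2, an inhibitor of the pathway, fell by 0.52 (adjusted p = 0.0351), and the median of the list was -0.08. Of 12 elongation and termination factors 1 rose, Eef1b2, with a log2 difference of 1.00 (adjusted p = 0.00978) and group means of 936, 1108, 1880 and 2225 (LF and HFS of Lean dams, then LF and HFS of GDM dams). The length measure also differed between dams in these same libraries, and the rRNA share was lower under GDM without passing after adjustment. Their part in the differences of these lists was not tested.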

How the data were processed

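Islet RNA from 12 rat offspring in 4 groups of 3 was sequenced after removal of rRNA. Groups and replicate numbers come from the library titles. The submitters' processing notes name STAR 2.5.1b, HOMER 4.9 and DESeq2. HOMER summed exon reads of both strands on build rn5, per the file headers, with 1 condensed entry per gene, so antisense and near-identical genes cannot be told apart.

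In the deposited table the unit is a depth-scaled signal. FPKM is the header's word, yet no division by length was found: the values are whole multiples of 1 step per library, and dividing by the step gave whole reads for 100% of values up to 1000 reads (tolerance 0.1). The assumed test on normalized values was kept.

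Each library was divided by its median ratio over the 11337 entries above 0 in all libraries, which gives the scaled values. Entries with a mean of at least 1 (12339 of 17407) were tested with limma 3.58.1 in R 4.3.3 on log2(scaled value + 1), with a mean-variance trend, 1 mean per group and Benjamini-Hochberg adjustment in each of 7 contrasts. Fold changes are on that scale. Ratios and library measures were tested by exact permutation of the dam labels within weaning diets (400 arrangements). The steps were tested on simulated data. edgeR 4.0.16 and DESeq2 1.42.0 were run on the recovered reads. Shares of genes called by DESeq2 are of the genes to which it gave an adjusted p. Other alternatives were pseudocounts of 5 and 0.1, no filter or a minimum of 10, no rescaling, TMM factors, no trend, the replicate block, each library or the K libraries left out, a length trend removed per library, and the acinar or rRNA level as a covariate.

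The members, role groups and related lists were chosen with earlier results of these data known. By rule the text names members past the threshold, those with the largest differences, those of lowest p where fewer than 5 passed, and the members of the ratio pairs. Of the 48 entries, 44 matched a RefSeq accession. Depth limits the precision of Eif4ebp3 most.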

Additional observations from a re-analysis of the deposited data

Results flagged for a closer look

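Eif3j was singled out because its difference between dams ran in opposite directions on the weaning diets, with every library of a group on the same side. Under LF weaning the log2 difference of GDM against Lean dams was 0.51 (adjusted p = 0.0918), and under HFS weaning it was -0.44 (adjusted p = 0.272). The test of the difference itself, the interaction term in limma, gave -0.95 ± 0.243 (SE, limma adjusted p = 0.784). It ranged from -1.11 to -0.78 when single libraries were left out. Its sign could not change there, because Eif3j was picked for libraries separated in opposite directions.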

How the results depend on the processing

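For GDM averaged over weaning diets, the 6 members that rose and 1 that fell became 2 and 1 with no rescaling (3.48% and 1.99% of all genes), 1 and 1 without the trend (3.35% and 2.09%), 1 and 1 with the length trend removed, and 2 and 1 with the acinar covariate. They became 0 and 0 with the rRNA covariate or without the K libraries, and 11 and 1 in DESeq2. Leaving out single libraries gave 1 to 12 that rose and 1 to 3 that fell. On LF weaning, 0 and 0 became 2 and 1 with the rRNA covariate (3.05% and 2.9% of all genes). The lower count was 1 with a minimum of 10 (1.89%), with no rescaling (3.29%) and with TMM factors (1.44%). DESeq2 gave 7 and 1 (7.83% and 6.43% of the genes to which it gave an adjusted p). Single libraries gave 0 to 8 and 0 to 3. On HFS weaning DESeq2 called 3 and 2. No setting gave a member past the threshold for weaning diet or the interaction. The cause of these changes was not tested, except that settings with fewer libraries have fewer samples.

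The replicate block gave 3 that rose (5.17% of all genes) and 1 that fell (4.07%). Same-numbered libraries of different groups correlated at -0.50 to 0.20 (median -0.04), and 5 of 12 libraries correlated best with their own number, so the numbers are not taken to pair the libraries.

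The log2 ratio of Eif4ebp2 to Eif4e was -1.36 to -1.05 without single libraries, and -1.31 without the K libraries. That setting leaves GDM-LF 3 alone in its group, with too few arrangements for the permutation test to decide. The ratio of Eif2b5 to Eif2s1 was -0.79 to -0.55 and that of Eif4a2 to Eif4a1 -0.0299 to 0.16. With the length trend removed, an alternative chosen after seeing the data, that of Eif3a to Eif3k was 0.25 (adjusted p = 0.408). The difference in rRNA share was -20.8 to -13.7 percentage points, and -18.1 without the K libraries (exact p = 0.125).

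For GDM over both diets, each member that changed sign was past the threshold in neither setting, apart from Eif3k, which had passed. With the length trend removed 15 changed sign: Eif3k (-0.12), Eif1b (-0.13), Eif2b1 (-0.11), Eif2b4 (-0.0347), Eif3a (0.13), Eif3b (0.00392), Eif3f (-0.0501), Eif3h (-0.0195), Eif3j (-0.0168), Eif3l (-0.12), Eif4b (0.15), Eif4e2 (-0.13), Eif4ebp1 (-0.33), Eif4ebp3 (-0.35) and Eif5a2 (0.11). With the rRNA covariate 8 did: Eif1 (0.12), Eif2a (-0.0313), Eif2b3 (-0.0613), Eif3a (0.13), Eif3b (0.00458), Eif4b (0.0635), Eif4g3 (0.0359) and Eif4h (-0.00346). With the acinar covariate 4 did: Eif4ebp1 (-0.17), Eif4ebp3 (-0.0540), Eif4h (-0.0412) and Eif5a2 (0.0789). Without the K libraries 5 did: Eif3f (-0.0710), Eif4e2 (-0.13), Eif4ebp1 (-0.0895), Eif4h (-0.0353) and Eif5a2 (0.00865). TMM factors and edgeR turned the same 5, at -0.0141 and -0.0152 for Eif2b1, -0.0279 and -0.0285 for Eif2b5, -0.00865 and -0.0213 for Eif3j, -0.00801 and -0.00932 for Eif3l, and -0.0129 and -0.00410 for Eif4h. Without single libraries Eif4ebp1 ran from -0.0874 to 0.17, Eif5a2 from -0.30 to 0.12, Eif2b5 from -0.00693 to 0.0413, Eif3a from -0.21 to 0.0105, Eif2b1 from -0.0206 to 0.0894, Eif3j from -0.0488 to 0.11, Eif3l from -0.00257 to 0.0885, Eif4b from -0.10 to 0.0626, Eif4ebp3 from -0.0585 to 0.33 and Eif4h from -0.0348 to 0.0825. With no rescaling the diet differences in Lean offspring became -0.0055 for Eif3j, -0.0392 for Eif3el1 and -0.0366 for Eif3f, and the interaction of Eif5 0.0104, where the median of all genes moved by -0.35 and 0.42. Eif5b in GDM offspring was 0.15 without K. With no rescaling the median difference between dams was -0.17 for all genes and 0.10 for members on LF, and 0.20 and 0.36 on HFS.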
